A study of Mus musculus with 16 samples.

Results

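H3K4me3 and H3K27ac, the 2 histone marks of active promoters, were set against each other in Mettl14 knockout mouse embryonic stem cells (mESCs). The lists compared were the H3K4me3 lists of replicates 1 and 2 and the H3K27ac lists of replicates 1 and 2 from knockout cells, 4 of the 16 libraries of the series, chosen by mark, genotype and replicate number. Trimethylation of histone H3 at lysine 4 is laid down at transcription starts by SET1 and MLL methylases, mostly over CpG-rich promoters, and is found at active and at poised genes alike. Acetylation of lysine 27 is added by p300 and CBP at active promoters and at active enhancers, and it cannot stand on the same lysine as the methylation that Polycomb places there. In mESCs, dense enhancers that carry H3K27ac lie next to many genes of the pluripotency network.

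All cells were C57BL/6 mESCs. The knockout, written CKO in the labels, removes Mettl14, whose protein pairs with METTL3 to place N6-methyladenosine (m6A) on RNA. The control is labelled Mettl14 Control. Knockout and control cells alike were grown in serum with LIF, the GSK3 inhibitor CHIR99021 and the MEK inhibitor PD0325901, which keep mESCs undifferentiated. The labels say nothing of clones, of separate cultures or of how the deletion was made, so the spread between replicates may be technical.

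Chromatin was read by ChIP-seq, and 1 peak list was deposited for each library. The lists give positions and widths (never below 501 bp) and no height, read number or p-value, so the depth behind them is unknown. The antibody label of the H3K27ac libraries is that of the H3K4me3 libraries, ab8580. The mark in the title was used here, and the antibody itself could not be checked. The lists of the 2 marks differed in position and width, as given below. None of the 66 pairs among the 12 lists held identical peaks. A list sums over many cells, so 2 marks called at a gene need not lie in the same cell or on the same allele. Mettl14 itself carried H3K4me3 peaks of 1074 bp and 1295 bp and H3K27ac peaks of 629 bp and 627 bp in the knockout lists. In the control lists it had no H3K4me3 peak and a 501 bp H3K27ac peak in replicate 1 alone. Such peaks say nothing on a deletion inside the gene, and the genotype was not checked here.

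A gene was called in a list when a peak touched a window that reached 1 kb to both sides of an end of its mm10 span. A gene called in all 4 knockout lists was counted as carrying both marks. "H3K4me3 alone" means called in both H3K4me3 lists and in neither H3K27ac list, and "H3K27ac alone" means the reverse. Genes called in other combinations are given as called in some lists. A span can begin away from a gene's main promoter, which moves the window off it. The calls were therefore also read at the transcription starts of the RefSeq promoter table, which gives a strand and a start for 17492 of the 21887 protein-coding genes.

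The promoters that the 3 classes stand on are shown first, by the 250 bases before the RefSeq start (assembly GRCm38.p6, 5′ to 3′ on the gene's strand), with each CG pair in capitals, because the classes differed in CG content. Klf4 (chr4:55532476-55532725, minus strand) and Nanog (chr6:122707239-122707488, plus strand) carried both marks. They encode transcription factors of the naive pluripotency network. The Klf4 stretch holds 32 CG pairs and the Nanog stretch 3.
Klf4: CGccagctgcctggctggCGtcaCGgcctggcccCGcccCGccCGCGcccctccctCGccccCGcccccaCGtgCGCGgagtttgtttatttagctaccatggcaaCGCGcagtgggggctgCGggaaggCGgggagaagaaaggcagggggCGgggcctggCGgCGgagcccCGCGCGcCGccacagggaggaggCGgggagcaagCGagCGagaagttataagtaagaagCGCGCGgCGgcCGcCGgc
Nanog: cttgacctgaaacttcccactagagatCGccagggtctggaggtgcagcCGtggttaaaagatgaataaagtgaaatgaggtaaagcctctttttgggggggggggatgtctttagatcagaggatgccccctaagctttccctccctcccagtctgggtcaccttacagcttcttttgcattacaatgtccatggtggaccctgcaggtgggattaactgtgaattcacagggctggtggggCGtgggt
Foxo3 (chr10:42276696-42276945, minus strand), a forkhead factor held in check by growth factor signalling, and Ing2 (chr8:47675160-47675409, minus strand), a reader of H3K4me3 in a histone deacetylase complex, carried H3K4me3 alone. Their stretches hold 31 and 24 CG pairs.
Foxo3: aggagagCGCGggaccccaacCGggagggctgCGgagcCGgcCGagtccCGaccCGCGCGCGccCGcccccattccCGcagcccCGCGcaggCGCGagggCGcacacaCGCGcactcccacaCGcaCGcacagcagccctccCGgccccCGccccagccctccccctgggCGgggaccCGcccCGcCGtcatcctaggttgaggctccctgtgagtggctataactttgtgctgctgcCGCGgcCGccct
Ing2: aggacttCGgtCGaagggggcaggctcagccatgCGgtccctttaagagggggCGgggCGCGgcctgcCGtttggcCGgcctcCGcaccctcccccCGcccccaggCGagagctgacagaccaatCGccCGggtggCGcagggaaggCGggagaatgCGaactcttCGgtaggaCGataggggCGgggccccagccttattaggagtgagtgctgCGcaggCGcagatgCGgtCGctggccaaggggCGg
Elobl (chr11:88966932-88967181, minus strand) and Phf11d (chr14:59365491-59365740, minus strand) carried H3K27ac alone. The Elobl stretch holds 0 CG pairs and the Phf11d stretch 2.
Elobl: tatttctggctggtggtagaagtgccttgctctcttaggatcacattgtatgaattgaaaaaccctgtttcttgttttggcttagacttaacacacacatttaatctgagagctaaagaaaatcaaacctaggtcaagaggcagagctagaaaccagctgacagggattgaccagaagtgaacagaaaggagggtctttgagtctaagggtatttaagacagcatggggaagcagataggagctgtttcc
Phf11d: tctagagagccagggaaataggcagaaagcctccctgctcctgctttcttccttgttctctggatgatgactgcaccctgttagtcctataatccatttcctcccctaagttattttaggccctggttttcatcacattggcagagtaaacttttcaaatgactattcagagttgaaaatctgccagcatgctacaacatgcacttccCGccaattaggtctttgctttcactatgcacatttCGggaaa

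The 2 marks made lists of different shape. H3K4me3 gave 8131 and 8055 peaks (8093 ± 53.7, SD, n = 2 lists), against 15271 and 15058 H3K27ac peaks (15164.5 ± 151). The H3K4me3 peaks covered 8.01 ± 0.173 Mb, against 16.0 ± 0.0446 Mb for H3K27ac (SD, n = 2 each). H3K4me3 thus had 0.534-fold the peaks and 0.502-fold the covered length. The typical H3K4me3 peak was nonetheless wider. Medians in the H3K4me3 lists were 883 bp and 866 bp, and those in the H3K27ac lists 631 bp and 633 bp, a 1.38-fold difference. The widest peaks were those of H3K27ac, since H3K4me3 reached 5277 bp and 5836 bp and H3K27ac 21106 bp and 21562 bp. At an end of a gene of any type lay 76.0 ± 0.487% of H3K4me3 peaks, against 35.1 ± 0.423% of H3K27ac peaks, a difference of 41.0 percentage points. A peak of the other mark overlapped 54.3 ± 0.282% of H3K4me3 peaks, against 25.7 ± 0.661% of H3K27ac peaks, a difference of 28.7 points. A peak of the other replicate overlapped 62.7 ± 0.417% of H3K4me3 peaks, against 41.6 ± 0.306% of H3K27ac peaks. In each of these measures the 2 lists of a mark lay on the same side of both lists of the other, by more than the spread between replicates (two-sided exact permutation p = 0.333, the smallest that 2 lists against 2 allow). The share of overlapping peaks depends on list length: with all lists limited to their widest peaks at equal number, the difference was 6.16 points.

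Both marks stood at 2366 protein-coding genes (10.8% of 21887). H3K4me3 alone stood at 1307 genes (5.97%), H3K27ac alone at 357 (1.63%), and 12354 (56.4%) had no call of either mark. The other 5503 genes (25.1%) were called in some lists. H3K4me3 was called in both of its lists at 5242 genes (24%), and 45.1% of these had H3K27ac in both of its lists and 24.9% in neither. H3K27ac was called in both of its lists at 3155 genes (14.4%), and 75.0% of these had H3K4me3 in both of its lists and 11.3% in neither. Most genes with H3K27ac at an end thus had H3K4me3 there, and H3K4me3 without H3K27ac was the more frequent of the 2 single states. At 2137 of the 2366 genes with both marks (90.3%), the widest H3K4me3 peak overlapped an H3K27ac peak in every combination of lists, so the peaks of the marks coincided there. Among genes called in some lists, 1728 had H3K4me3 in a single list and no H3K27ac, and 1569 had H3K4me3 in both lists and H3K27ac in a single list.

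The width of an H3K4me3 peak went with the presence of H3K27ac. Of the genes whose widest H3K4me3 peak had the minimum width, 13.4% had H3K27ac in both lists by H3K4me3 replicate 1 and 14.0% by replicate 2. From 1001 to 1500 bp the shares were 45.7% and 45.6%, and from 1501 to 2000 bp 62.5% and 63.0%. Above 2500 bp, H3K27ac was called in both lists at 82.0% of 194 genes by H3K4me3 replicate 1 and at 83.1% of 160 genes by replicate 2. Genes with H3K27ac in neither list made up 59.0% and 61.8% at the minimum width, and 6.70% and 5.63% above 2500 bp. Both replicates gave the same order of the 6 width ranges. Among the 2366 genes with both marks the widths of the 2 marks also went together, with a Spearman rho of 0.467 in replicate 1 and 0.477 in replicate 2. This is across genes, which are not replicates, and peaks at shared ends count for more than 1 gene. Median H3K4me3 widths were 1398 bp and 1336.5 bp at genes with both marks. At genes with H3K4me3 alone they were 896 bp and 891 bp.

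**Figure D1:**
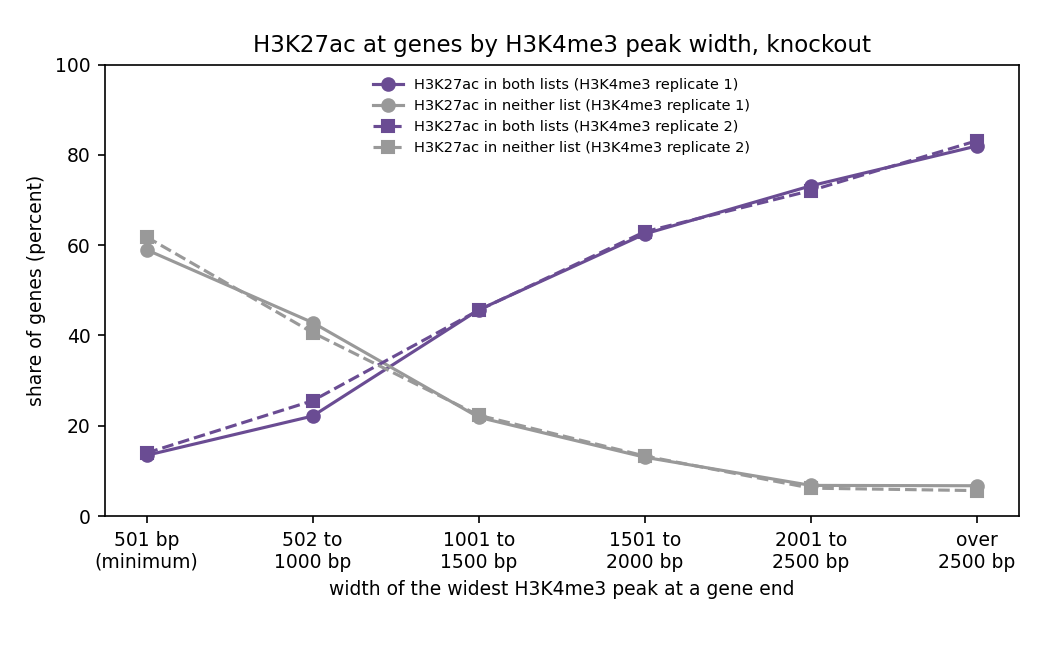
Share of genes (percent) with H3K27ac in both lists (purple) or in neither list (grey), by the width of the widest H3K4me3 peak at the gene's ends, for H3K4me3 replicate 1 (solid line, circles) and replicate 2 (dashed line, squares). The purple share is 13.4% and 14.0% at the minimum width and 82.0% and 83.1% above 2500 bp, and the grey share runs the other way.

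The genes with the widest peaks of both marks encode chromatin proteins, pluripotency factors and a ribosomal protein, among others. They were ranked by the smallest of the 4 list widths. Brd2, a bromodomain protein that binds acetylated histones, had H3K4me3 peaks of 5277 bp and 5836 bp and H3K27ac peaks of 4455 bp and 5122 bp. The same peaks touch an end of its neighbour H2-DMa, so the pair holds 1 site. Tbx3, a T-box factor of the naive state, had H3K4me3 peaks of 4709 bp and 4209 bp and H3K27ac peaks of 7438 bp and 5390 bp. In its case H3K27ac was the wider mark in both replicates. Cbx3, a heterochromatin protein, and Hnrnpa2b1, an RNA-binding protein, share a promoter region whose H3K4me3 peaks of 4634 bp and 4163 bp were wider than its H3K27ac peaks of 3636 bp and 3517 bp. Klf4 had 3431 bp and 4424 bp of H3K4me3 and 4011 bp and 4357 bp of H3K27ac. Nanog showed the most unequal pair of these 10 genes, with 3162 bp and 3981 bp of H3K4me3 against 8423 bp and 8321 bp of H3K27ac. Its H3K27ac reached 7.49 kb and 6.92 kb upstream of the start, while the main H3K4me3 peak began near the start and ran into the gene. The other 3 of the 10, Ptma (prothymosin alpha), Rpl3 (a ribosomal protein) and Nsd1 (an H3K36 methylase), had 3370 to 3740 bp of H3K4me3 and 3637 to 4532 bp of H3K27ac. Over all 2366 genes, H3K27ac was the wider mark in 35.1% by replicate 1 and in 40.6% by replicate 2.

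H3K4me3 alone was found at wide promoters too. Foxo3 led with H3K4me3 peaks of 3469 bp and 3626 bp and no H3K27ac peak at its ends in either list. A 501 bp H3K27ac peak of replicate 2 lay 2.62 to 3.12 kb inside the gene, beyond the window, and replicate 1 had none there. Foxo1, a forkhead factor of the same family, had H3K4me3 peaks of 2273 bp and 2299 bp. Ing2 had 2601 bp and 2748 bp, and neither H3K27ac list held a peak anywhere in its span. Vegfa, an angiogenic growth factor, had 2928 bp and 2310 bp. Sall1, a zinc finger factor of development, had 2056 bp and 2151 bp, and Tfap4, a helix-loop-helix factor, 2388 bp and 2023 bp. Kdm2a, which demethylates H3K36 and binds CpG islands, had 3134 bp and 2601 bp, with H3K27me3 peaks of 633 bp and 660 bp at its ends as well. Ankib1 and Krit1 share a promoter region with 2094 bp and 1998 bp. Ankrd17 is in this class by its gene ends (3484 bp and 3033 bp), yet at its listed start H3K27ac peaks of 2140 bp and 2691 bp were called, so it carried both marks there. For the 1307 genes the nearest H3K27ac peak lay a median of 25300 bp from the gene's H3K4me3 peak by replicate 1 and 25245 bp by replicate 2. It lay within 5 kb in 13.8% of genes by either replicate.

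H3K27ac alone was the smallest class. Over its 357 genes the median H3K27ac width was 882 bp in replicate 1 and 872 bp in replicate 2, beside 1181 bp and 1208.5 bp at genes with both marks. The 10 genes widest by the smaller of their list widths had H3K27ac peaks of 5206 to 12738 bp. Arl14epl led with H3K27ac peaks of 9908 bp and 7910 bp. Elobl had 7140 bp and 9530 bp, Phf11d 8102 bp and 6521 bp, and H3c3, a replication-dependent histone H3 gene, 10691 bp and 6559 bp. Arl14epl had an H3K4me3 peak inside its span in replicate 2, and it has no listed start. No H3K4me3 peak was called in the span of Elobl, Phf11d or H3c3 in either list, and these 3 had H3K27ac alone at their listed starts too. Mettl27 (6071 bp and 8945 bp), Lax1 (5790 bp and 5561 bp) and Fam25c (5347 bp and 8775 bp) also had no H3K4me3 peak in their spans. Their H3K27ac was not called at the listed start in both lists, since Lax1 had it there in neither, Mettl27 in replicate 2 alone (1016 bp) and Fam25c in replicate 1 alone (5347 bp). The other 3 of the 10 had H3K4me3 at the listed start. Mcl1, a survival factor of the BCL2 family, had H3K27ac peaks of 12738 bp and 6695 bp, and its listed start lies inside H3K4me3 peaks of 3044 bp and 3038 bp. H2-M5, a class I histocompatibility gene, had H3K4me3 peaks of 1292 bp and 750 bp at its listed start, and Tpm3 (tropomyosin 3) of 1469 bp and 1304 bp. These 3 carried both marks at their listed starts. Of the 10 genes, all but Mettl27 were called with H3K27ac alone in control cells as well. Mettl27 had a 643 bp H3K4me3 peak in control replicate 1. Over all 357 genes of the class the share was lower. In control cells 120 (33.6%) had H3K27ac alone, 139 (38.9%) were called in some lists and 97 (27.2%) had no call.

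**Figure D2:**
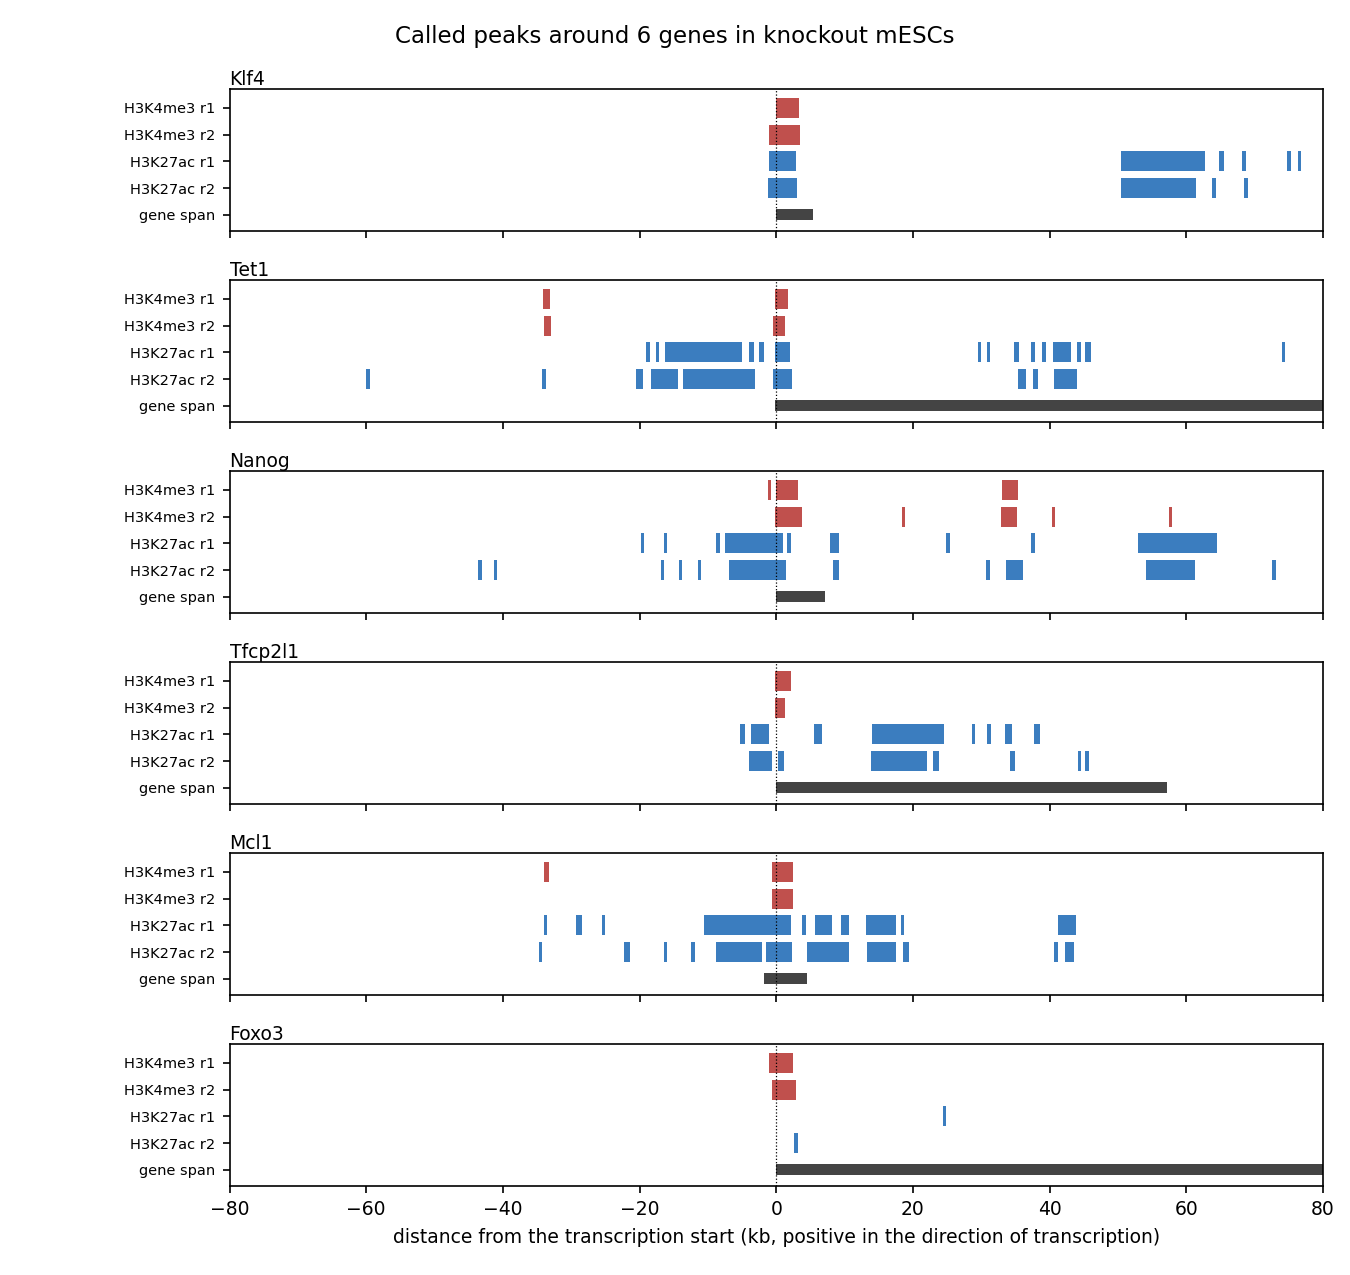
Called peaks of H3K4me3 (red) and H3K27ac (blue) of both knockout replicates (r1, r2) around 6 genes, with the gene span in grey, by distance from the transcription start in kb, positive in the direction of transcription. Klf4, Tet1 and Nanog carry both marks at or near the start and blocks of H3K27ac away from it, Mcl1 carries both at its listed start, Tfcp2l1 has its widest H3K27ac inside the gene, and Foxo3 has H3K4me3 with no H3K27ac at the start.

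At listed starts, the class with both marks and that with H3K4me3 alone had most of their calls there, and the class with H3K27ac alone had a lower share of its calls there. Of the 1938 genes with both marks that have a listed start, 1844 (95.1%) had H3K4me3 at it in both lists and 1772 (91.4%) had H3K27ac. Of 1073 genes with H3K4me3 alone, 996 (92.8%) had H3K4me3 at the start in both lists, and 28 (2.61%) had H3K27ac there in any list. Of 293 genes with H3K27ac alone, 208 (71.0%) had H3K27ac at the start in both lists, and 31 carried both marks in all 4 lists there. Classes read at listed starts held 1989 genes with both marks, 1170 with H3K4me3 alone and 210 with H3K27ac alone.

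Promoter sequence differed between the classes along CG content. In the window of 250 bases before to 50 after the start, the median ratio of observed to expected CpG was 0.863 at genes with both marks (n = 1938) and 0.811 at genes with H3K4me3 alone (n = 1073). It was 0.606 at genes with H3K27ac alone (n = 293) and 0.284 at genes with no call (n = 9783), beside 0.575 for all 17492 promoters. A ratio above 0.6 was found in 87.1%, 84.8%, 51.5% and 24.3% of these 4 classes in the same order, and in 48.2% of all. By both measures genes with H3K27ac alone were near all promoters. Searched on both strands, the letters TATAAA were in 6.35% of promoters with both marks, 5.13% with H3K4me3 alone and 10.6% with H3K27ac alone, beside 13.3% of all. The GC box letters GGGCGG were in 70.6%, 70.9% and 47.8% of those 3 classes, beside 46.3% of all. CCAAT was in 38.0%, 40.6% and 41.6%, beside 39.1% of all, so its share was close to the background in each class. Matches of these motifs may share end letters, and a match is a string of letters, not a bound site. The stretches printed above are examples picked from these data and no support for this order. That of Nanog, a gene called with both marks, holds 3 CG pairs. Its main H3K4me3 peak of replicate 1 begins 5 bases after the start, so it does not cover that stretch. The main H3K4me3 peak of replicate 2 begins 0.156 kb before the start and covers part of the stretch. H3K27ac peaks of both lists cover all of it. Elobl and Phf11d are among the CG-poor genes with H3K27ac alone. The stretches of the other widest genes of that class with a listed start held from 1 CG pair (Fam25c) to 26 (Mcl1), with 16 at Mettl27.

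**Figure D3:**
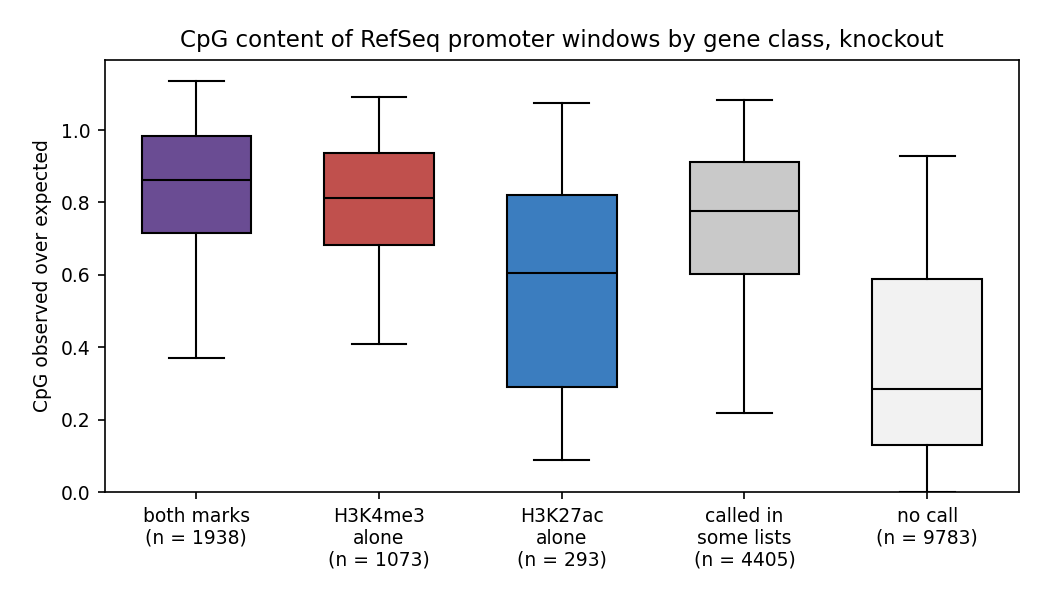
Observed over expected CpG in RefSeq promoter windows of 300 bases, by gene class in knockout cells. Boxes span the quartiles with the median as a line, whiskers run from the 5th to the 95th percentile, and n is the number of genes with a promoter in the table. The medians are 0.863 with both marks, 0.811 with H3K4me3 alone, 0.606 with H3K27ac alone and 0.284 with no call.

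H3K27me3, the Polycomb mark, which the classes did not use, had a lower share at genes with both active marks than at those with H3K4me3 alone. Its knockout lists called 39 and 35 of the genes with both marks (1.65% and 1.48%). They called 133 and 141 of the genes with H3K4me3 alone (10.2% and 10.8%) and 17 and 16 of those with H3K27ac alone (4.76% and 4.48%). Over all protein-coding genes the shares were 12.7% and 13.0%. Genes with H3K4me3 alone were thus near the background, and genes with both marks or with H3K27ac alone were below it.

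Pluripotency genes of the naive state mostly carried both marks. Of 25 such genes 15 (60.0%) did, beside 10.8% of all protein-coding genes, 1 had H3K27ac alone, 4 were called in some lists and 5 had no call. Pou5f1, which encodes OCT4, had H3K4me3 peaks of 2618 bp and 2825 bp and H3K27ac peaks of 5938 bp and 9027 bp. Sox2, its DNA-binding partner, had 3501 bp and 2829 bp of H3K4me3 and 4504 bp and 2548 bp of H3K27ac. Klf2 had 3227 bp and 3015 bp of H3K4me3 and 6104 bp and 2935 bp of H3K27ac, so H3K27ac was the wider mark in replicate 1 and not in replicate 2. Dppa5a, an RNA-binding protein of early embryos, had the narrowest H3K4me3 beside the broadest H3K27ac of the 15, 501 bp and 794 bp against 8786 bp and 10939 bp. Dppa4, a chromatin protein next to Dppa2, had H3K27ac alone (1314 bp and 1316 bp). Klf5 had H3K4me3 in both lists (1670 bp and 2477 bp) and H3K27ac in replicate 2 alone (918 bp), and Tfcp2l1 likewise (2429 bp and 1458 bp against 3307 bp in replicate 2). Esrrb, Dppa3, Utf1, Nr5a2 and Lin28a had no call at their ends. Of these, Nr5a2 had a 799 bp H3K4me3 peak of replicate 1 and H3K27ac peaks of 812 bp and 501 bp at its listed start, while Esrrb, Utf1 and Lin28a had neither mark at theirs. Inside their spans, Esrrb had both marks in both lists, Lin28a had H3K27ac in both lists and no H3K4me3, and Utf1 had neither mark.

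Signalling genes were split between the classes. Of all protein-coding genes, 10.8% had both marks, 5.97% had H3K4me3 alone and 56.4% had no call. The share with both marks was 13.3% in the LIF pathway list, near that of all genes, and 30.0% in the Nodal and BMP list. Of 15 LIF pathway genes, Pim3 and Klf4 carried both marks, and Jak1 and Stat3, the kinase and the transcription factor of the pathway, carried H3K4me3 alone. Pim3, a kinase, had H3K27ac at its listed start in replicate 1 only (832 bp). Jak1 had H3K4me3 peaks of 1475 bp and 798 bp and Stat3 of 894 bp and 501 bp, with 8 other members called in some lists and 3 with no call. In the Nodal and BMP list of 20 genes, 6 carried both marks: the ligands Nodal and Bmp7, the co-receptor Tdgf1, the transducer Smad1, the inhibitory Smad7 and the SMAD corepressor Skil. Nodal had 2007 bp and 1734 bp of H3K4me3 and 7707 bp and 7492 bp of H3K27ac, whereas Smad7 had nearly equal widths, 2995 bp and 3243 bp of H3K4me3 and 3028 bp and 3908 bp of H3K27ac. The receptor Acvr1b had H3K4me3 alone (1047 bp and 923 bp). Formative and primed genes carried both marks in 1 of 17 cases and H3K4me3 alone in 3, Zic2, Etv5 and Tcf15. Etv5 had H3K4me3 peaks of 1046 bp and 1154 bp at its promoter and no H3K27ac there, but a 12732 bp region of H3K27ac lay within 50 kb.

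Regulators of ectoderm, mesoderm and endoderm carried both marks in 0 of 28 cases and H3K4me3 alone in 2, while 22 had no call. Of all protein-coding genes, 10.8% carried both marks, 5.97% H3K4me3 alone and 56.4% no call. Isl1, a LIM homeodomain factor with H3K4me3 alone, had H3K4me3 peaks of 903 bp and 501 bp. H3K27me3 was called in both lists at 13 of the 28 genes, beside 7.84% of all protein-coding genes, and H3K27ac in both lists at 0, beside 14.4%. Eomes and Twist1 had H3K4me3 in both lists and a single H3K27ac peak in replicate 1 (631 bp and 807 bp).

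Genes for proteins that write, read or remove the marks mostly had a call, as did those of the transcription machinery and of m6A. At least 1 list called 17 of 18 genes of the H3K4 list (94.4%), 19 of 22 of the acetylation list (86.4%), 25 of 27 of the transcription machinery (92.6%) and 18 of 20 of the m6A list (90.0%), beside 43.6% of all protein-coding genes. Both marks stood at 10.8% of all, H3K4me3 alone at 5.97% and H3K27ac alone at 1.63%. Of 18 genes for H3K4 methylases, their subunits and H3K4 demethylases, 7 carried both marks (Kmt2b, Setd1a, Wdr5, Hcfc1, Kdm5a, Kdm5b and Kdm5c) and 1, Kmt2d, had H3K4me3 alone at its ends. At the listed start of Kmt2d both marks were called, H3K4me3 with 1257 bp and 1701 bp and H3K27ac with 715 bp and 1103 bp. Of 22 genes for acetyltransferases, bromodomain proteins and deacetylases, 5 carried both marks, among them Ep300, Brd2, Hdac1 and Ncor1. In that list Kat2a had H3K4me3 alone, and Kat6a, Kat8 and Brd3 had H3K27ac alone. At the listed start of Brd3, H3K4me3 peaks of 1100 bp and 892 bp were called. Of 27 genes of Mediator, cohesin and RNA polymerase II, 7 carried both marks, Med16 and Polr2a had H3K27ac alone, and 16 were called in some lists. The m6A list had both marks at 14 of 20 genes (70.0%), among them Mettl14, Wtap, Rbm15, Rbm15b, Cbll1 and Mettl16, and H3K4me3 alone at Ythdc2. Mettl3 had no call at its annotated ends, but at its listed start H3K4me3 peaks of 501 bp and 931 bp and H3K27ac peaks of 501 bp and 1408 bp were called.

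Genes of protein synthesis and of basic cell functions were often in the class with both marks, which held 10.8% of all protein-coding genes. Cytosolic ribosomal protein genes had both marks in 64 of 79 cases (81.0%), with 0 carrying a single mark in both of its lists. Mitochondrial ribosomal protein genes had both marks in 21 of 78 cases (26.9%) and H3K4me3 alone in 13 (16.7%). H3K4me3 alone was found at 5.97% of all protein-coding genes. Housekeeping genes had both marks in 13 of 20 cases, among them Actb, Gapdh, Hprt, Ppia and Ubb. Cell cycle genes had both marks in 11 of 30 cases, with Ccne1, E2f4 and Plk1 carrying H3K4me3 alone. Gene families with few calls stood at the other end. Olfactory receptor genes had no call in 1103 of 1110 cases, and keratin genes in 49 of 53, beside 56.4% of all protein-coding genes.

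Markers of other cell types were called to different degrees, and 56.4% of all protein-coding genes had no call. Of 12 fibroblast markers, which feeder cells would carry, 0 were in any of the 3 classes and 10 had no call, Col1a1, Col1a2, Col3a1, Thy1, Pdgfra and Fap among them. Of 10 primitive endoderm markers 7 had no call, including Gata4, Sox17 and Foxa2. Of 9 trophectoderm markers, Tead4 had H3K4me3 alone, Gata3 had H3K27ac alone with H3K27me3 in both lists, 3 were called in some lists and 4 (44.4%) had no call. At least 1 list thus called 55.6% of the trophectoderm markers, beside 43.6% of all protein-coding genes. The H3K27ac of Gata3 was not at its listed start in either list. Genes of blood, muscle and liver had no call in 19 of 20 cases, and germline and 2-cell-like genes in 12 of 14.

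**Figure D4:**
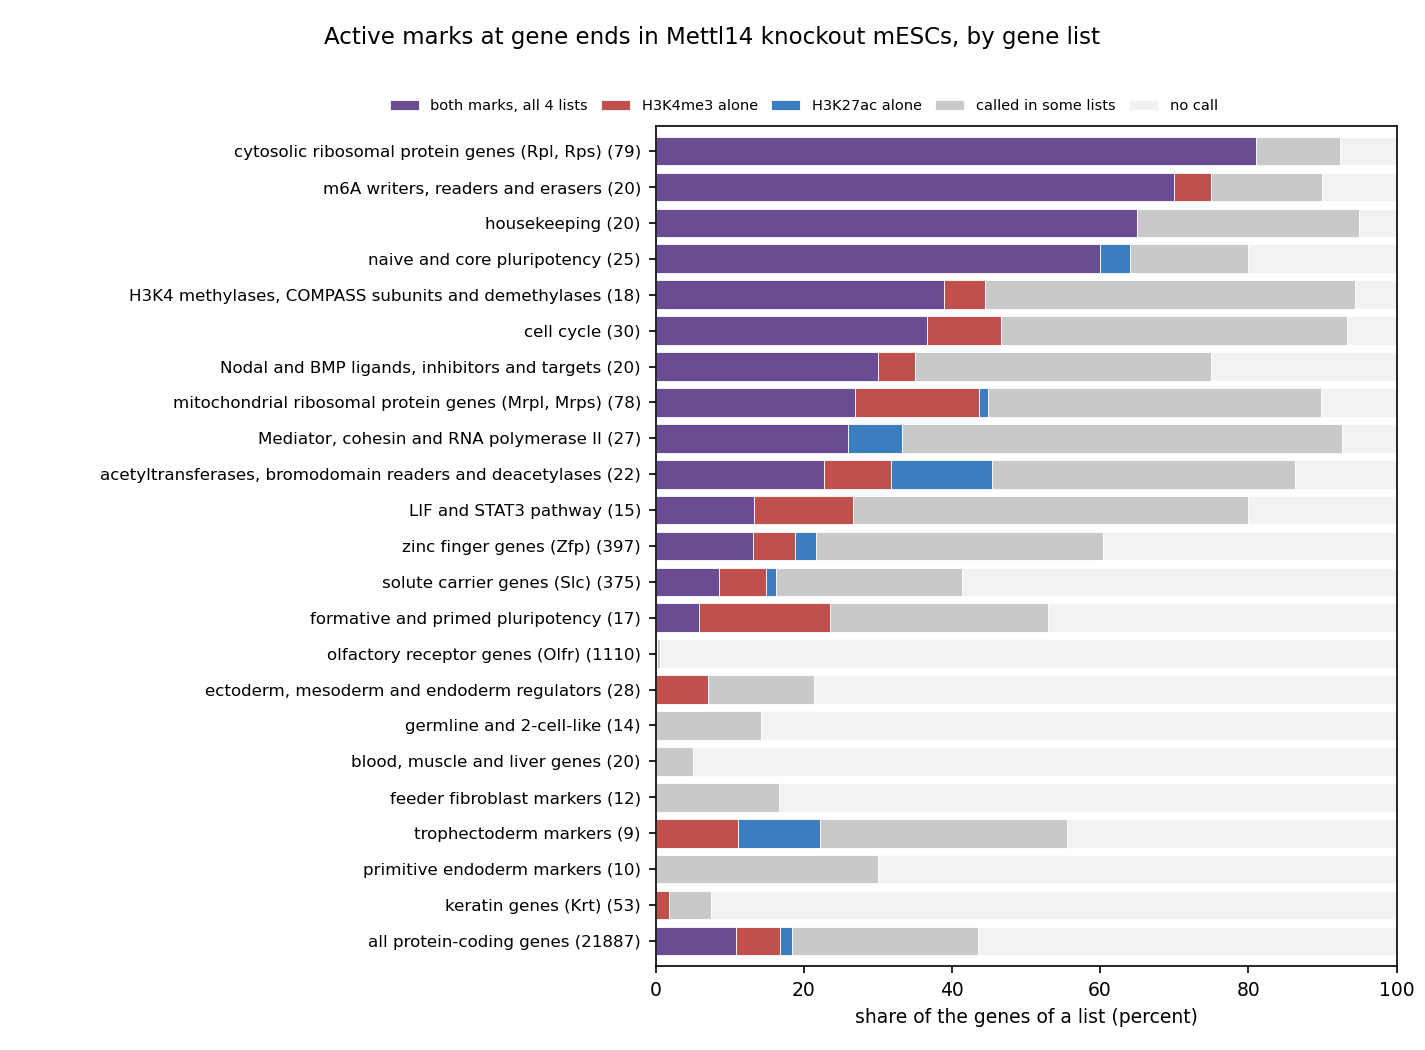
Share of the genes of each list (percent, number of genes in brackets) with both marks in all 4 knockout lists (purple), H3K4me3 alone (red), H3K27ac alone (blue), calls in some lists (grey) or no call (near white). Lists are ordered by the share with both marks, with all protein-coding genes at the bottom, and that share is 81.0% for cytosolic ribosomal protein genes and 10.8% for all protein-coding genes.

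Most H3K27ac in these cells lay away from H3K4me3. Outside the peaks of the other mark were 49.5 ± 0.451% of H3K4me3 bases and 77.5 ± 0.318% of H3K27ac bases (SD, n = 2 lists each). Of 6014 H3K27ac regions found in both lists, 3435 (57.1%) overlapped no H3K4me3 peak of either list, and 2579 (42.9%) did. Regions away from H3K4me3 were in gene bodies in 1639 cases (47.7%), in intergenic sequence in 1080 (31.4%) and at gene ends in 716 (20.8%). Regions with H3K4me3 were in gene bodies in 248 cases (9.62%), intergenic in 64 (2.48%) and at gene ends in 2267 (87.9%). The widths of these regions were alike, with medians of 1504 bp away from H3K4me3 and 1524 bp with it. Regions away from H3K4me3 covered 7.47 Mb, against 5.16 Mb with it. The nearest H3K4me3 peak was a median of 24720 bp away. It was within 1 kb for 105 regions, 1 to 5 kb away for 448 (13.0%), 5 to 50 kb for 1786 (52.0%), 50 to 500 kb for 1007 (29.3%) and farther for 89. H3K27me3 was rare in H3K27ac regions of both kinds. It overlapped 8 regions away from H3K4me3 (0.233%) by its replicate 1 and 9 (0.262%) by replicate 2. Of the regions with H3K4me3 it overlapped 15 (0.582%) by either replicate. The overlap to expect from the length of the H3K27me3 lists was not computed.

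In both H3K27ac lists, the share of peaks found again in the other replicate was lower away from H3K4me3 than with it. In the separate lists, 33.3 ± 0.475% of peaks away from H3K4me3 were also in the other H3K27ac replicate, against 65.7 ± 1.02% of peaks with it (SD, n = 2 lists). Minimum-width peaks made up 54.1 ± 0.550% of those away from H3K4me3, against 23.3 ± 0.677% of those with it. The peaks away from H3K4me3 numbered 11422 and 11122 per list, so most of them do not enter the 3435 regions.

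**Figure D5:**
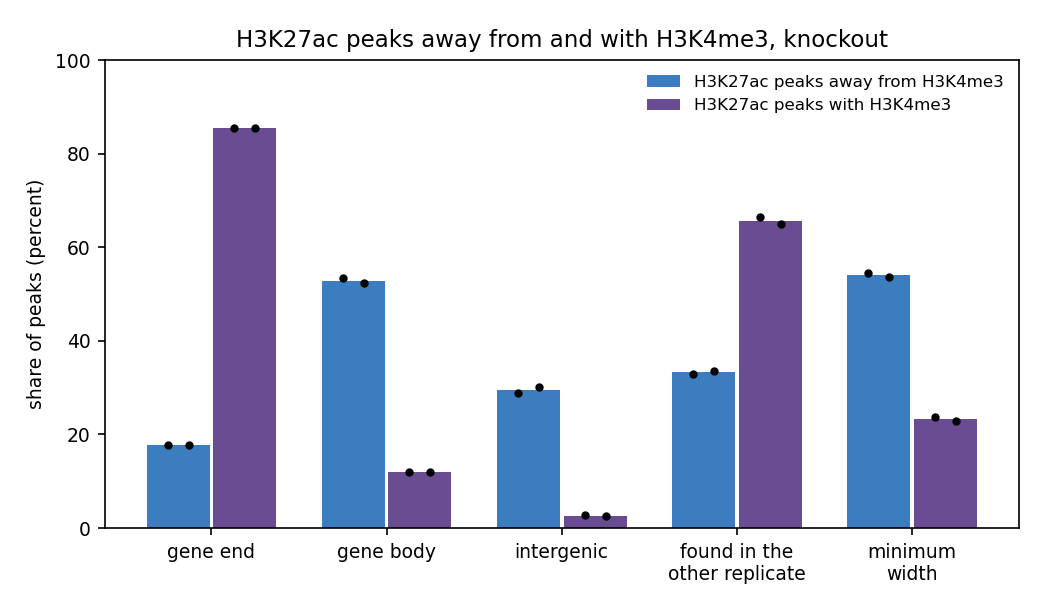
H3K27ac peaks away from H3K4me3 (blue) and with it (purple) in knockout cells, as the percent of peaks at gene ends, in gene bodies, in intergenic sequence, found in the other H3K27ac replicate, and of minimum width. Bars are means over the 2 H3K27ac lists and points are the lists. Peaks away from H3K4me3 are at gene ends in 17.7% of cases, against 85.4% of peaks with it.

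H3K4me3 without H3K27ac was the smaller share of its mark. Of 5059 H3K4me3 regions found in both lists, 1393 (27.5%) overlapped no H3K27ac peak and 3666 (72.5%) did. Those without H3K27ac had a median width of 1060 bp, against 1413 bp with it, and 90.7% and 90.5% of them lay at gene ends. The share of H3K4me3 regions at gene ends was thus alike with and without H3K27ac, whereas that of H3K27ac regions was 20.8% without H3K4me3 and 87.9% with it.

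Among the widest H3K27ac regions away from H3K4me3, several lay near genes of the naive network. The widest by the smaller of its list widths (chr4:55469730-55482093) had peaks of 12241 bp and 11012 bp in the knockout lists and 11186 bp and 11879 bp in the control lists. It lies 45.0 kb past Klf4, the nearest protein-coding gene, and 47.0 kb from the nearest H3K4me3 peak. A region 3.00 kb from Tet1 (chr10:62890469-62905692), which encodes a 5-methylcytosine oxidase, had peaks of 11297 bp and 10443 bp in knockout lists, against 5865 bp and 5632 bp in control lists. Its nearest H3K4me3 peak was 2.67 kb away, at the Tet1 promoter, where both marks were called (1951 bp and 1811 bp of H3K4me3 and 2195 bp and 2773 bp of H3K27ac). Inside Tfcp2l1, a LIF-responsive factor, a region (chr1:118641838-118652479) had peaks of 10518 bp and 8208 bp in knockout lists, against 8475 bp and 10293 bp in control lists. The knockout and control widths overlapped there, and they did not at Tet1. The other 7 of the 10 widest lay nearest to Klf9, Cd9, Lig1, Tmem51, Htr5a, Ppp1r12a and Loxl1, with smaller widths of 8616 to 9993 bp. The region inside Lig1, a DNA ligase, had 9458 bp and 9601 bp in knockout lists, against 6018 bp and 4847 bp in control lists. The nearest gene is given for position, and which gene a region acts on was not tested.

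Regions away from H3K4me3 also came in groups. Joined across gaps of up to 10 kb, the 3435 regions formed 2834 clusters, of which 2390 held a single region, 444 held 2 or more and 39 held 4 or more. The following clusters were among the 10 with the most covered sequence. A cluster at Trip12, a ubiquitin ligase, had 4 regions and 23.8 kb covered, and 1 in Etv5 had 3 regions and 19.8 kb. Etv5 carried H3K4me3 alone at its ends, as given above. Tet2, which encodes an oxidase of the TET family, had 4 regions and 16.5 kb inside the gene and both marks at its promoter. Aff1, a subunit of the super elongation complex, had the largest number of regions in a cluster, 8, with 18.3 kb covered. A further 5 of these 10 lay nearest to Myh9, Csnk1a1, Plekhf2, Epha4 and Tmem17, with 16.1 to 21.9 kb covered. At least 1 region away from H3K4me3 lay within 50 kb of 41.0% of genes with both marks and of 24.0% of genes with H3K4me3 alone, beside 23.0% of all protein-coding genes. The share was 85.2% of genes with H3K27ac alone, whose own peaks can be such regions. It was 18 of 25 (72.0%) for the naive pluripotency list and 2 of 28 (7.14%) for the regulators of ectoderm, mesoderm and endoderm. Esrrb, with no call at its ends, had 6 such regions within 50 kb, the widest of 7315 bp.

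The widest H3K27ac region of all overlapped H3K4me3 and lies over the miR-290 cluster, a microRNA cluster that mESCs express strongly. Its H3K27ac peaks were 21106 bp and 21562 bp in knockout lists, against 20743 bp and 20813 bp in control lists (joined region chr7:3199287-3220848). The H3K4me3 peaks inside it were 2965 bp and 2833 bp in knockout lists, against 1521 bp and 1978 bp in control lists. H3K27ac thus spread over most of the region and H3K4me3 sat toward its higher-coordinate end. The knockout H3K4me3 peaks covered miR-290a, miR-291a and miR-291b in both lists and reached neither miR-294 nor miR-295. In knockout replicate 1 the H3K27ac peak ends before miR-294 and miR-295, and in replicate 2 it covers them. The mature microRNAs are given from RefSeq (GRCm38.p6, plus strand, 5′ to 3′) with the seed, bases 2 to 8, in capitals, since the seed sets which transcripts they bind. The 3p strands of miR-291a (chr7:3218968-3218989), miR-294 (chr7:3220691-3220712) and miR-295 (chr7:3220815-3220837) have the same seed, and those of miR-290a (chr7:3218674-3218697) and miR-291b (chr7:3219529-3219550) differ from it in the last base. The 3p strand of miR-293 (chr7:3220390-3220411) has another seed.
miR-291a-3p: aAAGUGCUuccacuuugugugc
miR-294-3p: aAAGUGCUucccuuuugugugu
miR-295-3p: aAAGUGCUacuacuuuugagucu
miR-290a-3p: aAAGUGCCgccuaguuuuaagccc
miR-291b-3p: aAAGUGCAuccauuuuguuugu
miR-293-3p: aGUGCCGCagaguuuguagugu
Among all 1228 microRNA genes, 47 (3.83%) had both marks, 18 H3K4me3 alone and 9 H3K27ac alone.

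The other wide H3K27ac regions that touch H3K4me3 did so to different degrees. At Arih2, Eif2s2, Gabarapl2, Usp48 and Jam2, H3K27ac peaks of 9990 to 11557 bp contained H3K4me3 in both lists with 1850 to 3249 bp. At Myo10 and Mapt and near Epha2, H3K27ac peaks of 9584 to 16456 bp met only a 501 bp H3K4me3 peak of a single list. The region near Epha2 lies 10540 bp from that gene. These 3 regions would count as away from H3K4me3 if that peak were left out.

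The pairing of the marks differed between knockout and control cells by more than the spread between replicates. Of the genes called in an H3K27ac list, 83.2 ± 0.774% also had H3K4me3 in knockout cells, against 44.1 ± 2.60% in control cells (SD, n = 2 lists each), a difference of 39.1 percentage points. The knockout lists were both higher, at 82.6% and 83.7% against 42.3% and 46.0% (two-sided exact permutation p = 0.333, the smallest possible). Control H3K4me3 lists held 2859 and 2431 peaks, fewer than in knockout cells, and with all lists limited to their widest peaks at equal number the difference was 16.0 points. Of genes called in an H3K4me3 list, 67.9 ± 0.661% also had H3K27ac in knockout cells, against 74.1 ± 1.05% in control cells. In control cells 406 genes (1.85%) carried both marks, 937 (4.28%) had H3K27ac alone and 16070 (73.4%) had no call. Of the 2366 knockout genes with both marks, 332 (14.0%) had both in control cells, 412 (17.4%) had H3K27ac alone, 16 had H3K4me3 alone, 1323 were called in some lists and 283 (12.0%) had no call. Nanog, Sall4, Smad7, Wtap and Actb were among those with H3K27ac alone in control cells. Of control H3K4me3 peaks, 22.2% and 26.1% were found in the other replicate, against 62.5% and 63.0% in knockout lists. Minimum-width peaks made up 68.1% and 62.0% of the control H3K4me3 lists. A missing call in them thus need not mean that the mark is absent, which was not tested. Of the 1307 knockout genes with H3K4me3 alone, 827 (63.3%) had no call in control cells, beside 73.4% of all protein-coding genes. In control cells 3891 of 4868 H3K27ac regions found in both lists (79.9%) overlapped no control H3K4me3 peak, beside 57.1% in knockout cells. The control H3K4me3 lists are the shorter, as given above. Of the 3435 knockout regions away from H3K4me3, 1512 (44.0%) were called in both control H3K27ac lists and 821 (23.9%) in neither. Of the 2579 knockout regions with H3K4me3, 1314 (51%) were called in both and 477 (18.5%) in neither. The part of depth, precipitation and peak threshold in the longer knockout H3K4me3 lists was not tested.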

How the data were processed

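Per the labels, cells were fixed with formaldehyde, and a Diagenode histone ChIP kit with Active Motif spike-in chromatin and antibody and KAPA HyperPlus libraries were used. The submitters' processing notes name mm10 as the build and HOMER, SAMtools, Bowtie2 2.4.1, Trimmomatic 0.38 and CASAVA as tools. For the peak caller, its threshold and any use of inputs and spike-in the wording is "not given in the sources used here". The authors deposited 1 BED list per library, so replicates were called separately. The deposited score is 1 for every peak and ranks nothing. The lists hold positions alone, so no read depth or counting interval is given.

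Groups follow the mark and genotype in each title. The 4 inputs, the H3K27me3 control lists and the Mettl3 knockout named in the design were not analysed here. An overlap needed 1 bp. Gene spans and names came from RefSeq (GRCm38.p6, the assembly of mm10), 21887 protein-coding genes for the classes and 49960 genes of any type for the place of peaks. Promoters matched 17492 of the 21887. H3K27ac regions merge the peaks of both lists, and 10 peaks in the 12 lists lay on unplaced contigs. Lists were compared by a two-sided exact permutation test over 6 assignments, on log2 values for peak number and covered length. Classes are counts with no test. The rule for names took, without predicted genes, the 10 genes of each class and the 10 regions with the largest smallest width, the 10 clusters with the most covered sequence, up to 6 members per class of each list, and Mettl14 and Mettl3. Members outside it were named after their values were seen. The members and the gene lists were chosen with earlier results of these data known, so no list is independent support. Alternatives were other windows, listed starts, the wider 50% of each list, equal list length, larger overlaps or distances, leaving out each list and a replicate block. The counting was tested on simulated data: of 300 genes planted among 21887, 300 were recovered with 0 extra. Peaks were planted only at genes far from called peaks and from other genes' windows, always touching a window. Each went into every list that its class needs. The check thus covers the counting step alone, and not shared gene ends or calls in a single list. Python 3.11.15, numpy 2.4.6, pandas 2.3.3, scipy 1.17.1 and matplotlib 3.10.9 were used. Some genes and regions that the rules name are not reported here.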

Additional observations from a re-analysis of the deposited data

Results flagged for a closer look

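The difference between the 2 marks had opposite signs in knockout and control cells for 3 quantities, with each list of a mark on its side, and the reversal itself was not tested. The share of peaks found in the other replicate was higher for H3K4me3 by 21.17 percentage points in knockout cells, and the difference was -11.36 points in control cells. Genes called per list were more for H3K4me3 by 1927 in knockout cells, and the difference was -1719 genes in control cells. The share of called genes that carry the other mark differed by -15.31 points between H3K4me3 and H3K27ac in knockout cells, and by 29.95 points in control cells.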

How the results depend on the processing

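Of 80 values recomputed under other settings, 44 were differences, and 0 of these changed direction. The other 36 were counts, which have no direction to change. Within 1.5 times of the reported value stayed 20 of 36 counts and 39 of 44 differences. Among the 17492 genes with a listed start, 210 had H3K27ac alone at it, where 293 had it at their ends. With the wider 50% of each list, 1493 genes had both marks and 2243 H3K27ac regions lay away from H3K4me3. At equal list length, 2046 genes had H3K4me3 alone, 194 had H3K27ac alone and 2088 regions lay away, and the differences were 6.16 points in overlap, 16.0 points between knockout and control, and -0.63 on the log2 scale in covered length. Leaving out 1 list, where a single list then defines a mark, gave 2575 to 3170 genes with both marks, 2072 to 2204 with H3K4me3 alone, 566 to 840 with H3K27ac alone and 3656 to 11422 regions away. The last is largest without an H3K27ac list, so those counts rest on asking for both replicates. The overlap difference ran from 16.1 to 32.2 points, lowest without knockout H3K27ac replicate 1 and alike without replicate 2, the knockout minus control difference from 29.7 to 54.2 points, the gene-end difference from 40.6 to 41.3 points, and the log2 differences from -0.92 to -0.90 in peaks and from -1.02 to -0.97 in covered length. The cause of these shifts was not tested beyond the construction of each setting. Windows of 500 bp and 2500 bp, an overlap of 50% of the shorter peak and distances of 1000 bp and 5000 bp moved no count past 1.5 times. A replicate block leaves the differences the same by construction, -0.91 and -0.99 on the log2 scale, 41.0, 28.7 and 39.1 points. It changes only the test, where the smallest p possible is 0.5. The labels do not say that the numbers pair samples, and same-numbered lists deviated together with r = 0.204 over 9381 genes. Depth limits all of these lists to an unknown extent.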
